A study of Arabidopsis thaliana with 6 samples.

Results

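The genes AT5G52160, AT3G07450, AT5G62080, AT5G07230 and AT1G66850 encode lipid transfer proteins, or close relatives of them, that are known from the tapetum of the *Arabidopsis thaliana* anther. They were chosen by locus from a list of tapetal lipid transfer protein genes, and 5 of 5 had a probe set of their own, among 13286 genes so measured. Each had exactly 1 probe set, and none shared a probe set with another gene. The study set anthers of *myb80* mutant plants against anthers of wild-type plants, with 3 arrays for each genotype, the mutant ones named 1, 4 and 5-2 and the wild-type ones 2, 5 and 6. About 1000 anthers went into each replicate per the labels, which put them between stage 5 and stage 8. The labels give neither the mutant allele, nor the ecotype, nor the plants' age, nor what the replicate name 5-2 stands for.

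Lipid transfer proteins are small secreted proteins whose fold, held by conserved cysteines, encloses a hydrophobic channel that takes up fatty acids and other lipids. The tapetum is the innermost anther wall layer. It feeds the microspores, and it secretes the lipids and proteins of the pollen wall before it dies. MYB80, a transcription factor of the MYB class, acts in the tapetum, and plants without it are male sterile. AT5G07230 is the gene known as A9, whose promoter is widely used to drive transgenes in the tapetum. With AT5G52160 and AT5G62080 it forms the type III group of lipid transfer proteins, which the tapetum secretes into the locule and which have been found in the pollen exine. AT3G07450 and AT1G66850 belong to the same superfamily outside that group.

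Transcripts of AT5G52160, AT3G07450 and AT5G62080 rose in mutant anthers, by 8.66-fold, 4.97-fold and 3.48-fold. AT5G07230 and AT1G66850 had mutant means 2.42-fold and 1.75-fold above the wild-type means and did not pass the test. A gene was called, and the words rose and fell are used, where limma with Benjamini-Hochberg adjustment over 15164 probe sets gave an adjusted p under 0.05. The dimmest 1 in 3 probe sets had been left out of that test, and 5 of 5 genes passed this filter. By this rule 3 of 5 were called higher and 0 lower, while 0.448% of all tested probe sets were called higher. The genes, the filter and the test were chosen with earlier results of these data known. At an unadjusted p under 0.05 the count was 5 of 5 higher, where 4.87% of all tested probe sets were higher at that level and 7.41% lower. Across the 5 genes the median log2 difference, mutant minus wild type, was 1.80, beside 0.04 over all 15164 tested probe sets. On 4 of the 5 probe sets every mutant array lay above every wild-type array, which was so for 8.38% of all tested probe sets.

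**Figure D1:**
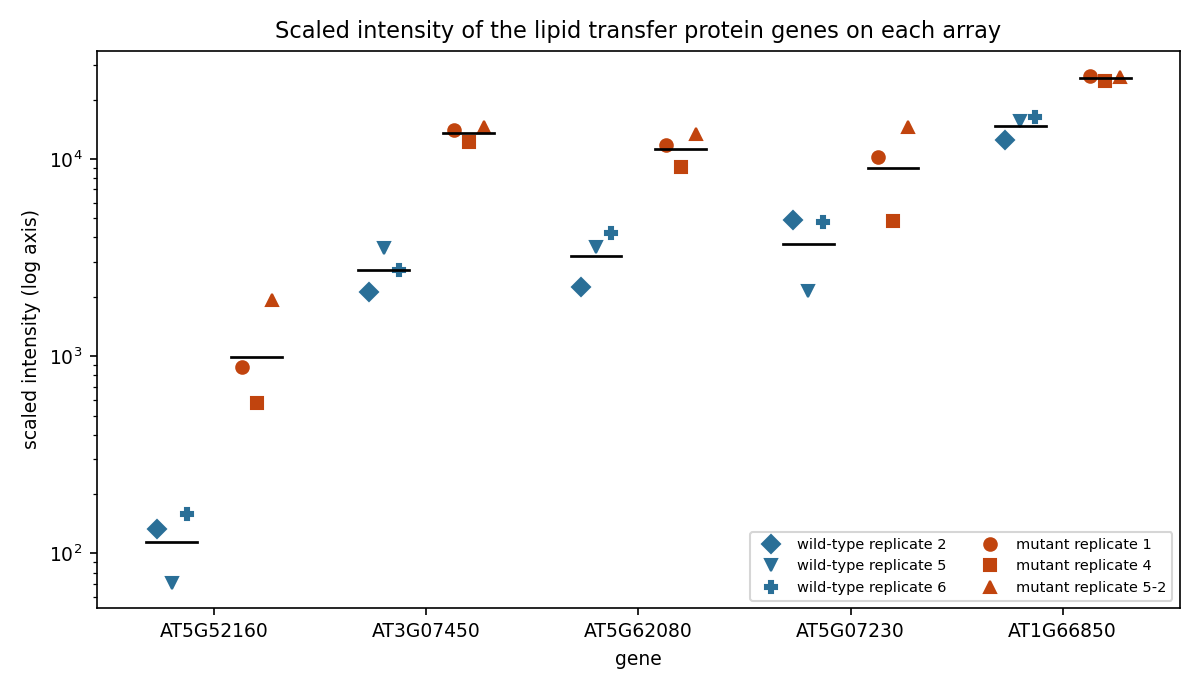
Scaled intensity on a log axis for each gene, with 1 point per array, wild type in blue on the left and mutant in red on the right. Black bars are geometric means of 3 arrays, and on these scaled values the groups overlap only for AT5G07230, where mutant replicate 4 (4850.2) lies below the highest wild-type array (4921). Probe sets differ in how brightly they report a transcript, so heights are to be compared within a gene.

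The values below are scaled intensities, which are the deposited intensities after each array was brought to a common median. Among the type III genes, AT5G52160 read 878, 578 and 1929 on mutant replicates 1, 4 and 5-2. On wild-type replicates 2, 5 and 6 it read 133, 71.2 and 159. The lowest mutant array was thus 3.63-fold above the highest wild-type array, although the mutant arrays themselves spanned 3.34-fold. The log2 difference was 3.11 ± 0.47 (SE from limma, 3 arrays per group, adjusted p in limma = 0.0172), with a 95% interval from 4.16-fold to 18.02-fold. Because limma draws each gene's variance toward a value common to all tested probe sets, its SE is not that of the gene's arrays alone.

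AT5G62080, a second type III gene, read 11743, 9151 and 13328 on mutant replicates 1, 4 and 5-2. It read 2245, 3596 and 4205 on wild-type replicates 2, 5 and 6. The groups did not overlap, and the lowest mutant array was 2.18-fold above the highest wild-type array. The log2 difference was 1.80 ± 0.32 (SE from limma, 3 arrays per group, adjusted p in limma = 0.0277), with a 95% interval from 2.13-fold to 5.70-fold.

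AT5G07230 (A9), the third type III gene, read 10255, 4850.2 and 14470.3 on mutant replicates 1, 4 and 5-2. Its wild-type values were 4921, 2149.8 and 4784 on replicates 2, 5 and 6. Mutant replicate 4 lay within the wild-type range, while the other two mutant arrays were above all wild-type arrays. This overlap depended on the scaling: as deposited, the lowest mutant value was 5406 and the highest wild-type value 4828, and the groups were also apart after quantile normalization and after scaling to 3 other tapetal genes. The log2 difference was 1.28 ± 0.46 (SE from limma, 3 arrays per group, adjusted p in limma = 0.273). Its 95% interval, from 1.18-fold to 4.99-fold, overlaps those of AT5G52160 and AT5G62080, and whether the 3 type III genes differed in their response was not tested.

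Outside that group, AT3G07450 read 14037, 12247 and 14458 on mutant replicates 1, 4 and 5-2, against 2107, 3534 and 2723 on wild-type replicates 2, 5 and 6. The mutant arrays spanned 1.18-fold and the wild-type arrays 1.68-fold, and the lowest mutant array was 3.47-fold above the highest wild-type array. The log2 difference was 2.31 ± 0.28 (SE from limma, 3 arrays per group, adjusted p in limma = 0.00719), with a 95% interval from 3.20-fold to 7.72-fold.

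AT1G66850 read 26299, 24717 and 25929.5 on mutant replicates 1, 4 and 5-2 and 12476, 15531 and 16359.8 on wild-type replicates 2, 5 and 6. Every mutant array was above every wild-type array, with a gap of 1.51-fold, and the mutant arrays differed among themselves by only 1.06-fold. The log2 difference was 0.80 ± 0.25 (SE from limma, 3 arrays per group, adjusted p in limma = 0.186), with a 95% interval from 1.18-fold to 2.59-fold. The SDs of its log2 values were 0.05 in the mutant and 0.21 in wild type (n = 3). After quantile normalization the groups met at 21522, and the log2 difference was 0.56. That method gives equal ranks equal values, and exactly 1 probe set was brighter on mutant replicates 1 and 5-2 and wild-type replicate 6. The meeting was thus fixed by rank and is no result about the separation. The AT1G66850 probe set stood near the top of the scale. At most 1 probe set was brighter on any mutant array, and its deposited intensity was 93.8%, 100% and 85.9% of the highest value on mutant replicates 1, 4 and 5-2, but 52.1%, 55.2% and 58.1% on wild-type replicates 2, 5 and 6. Whether the signal was compressed there was not tested.

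An exact two-sided permutation test over the 6 arrays gave p = 0.1 for AT5G52160, AT3G07450, AT5G62080 and AT1G66850 and p = 0.2 for AT5G07230. With 3 arrays against 3, 0.1 is the smallest p this test can give. Without the filter on dim probe sets, 0 of 5 genes were called by limma (adjusted p from 0.109 for AT3G07450 to 0.566 for AT5G07230) and 4 of 5 were higher at an unadjusted p under 0.05, where the share of all probe sets was 4.56%. In that test 0.00440% of 22746 probe sets were called higher, and 1449 of them had no variance between the arrays of a group.

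The calls also depended on single arrays, as did those over all tested probe sets. AT3G07450 passed whichever of the 6 arrays was dropped (adjusted p between 0.00463 and 0.0469). AT5G52160 passed in 3, those without mutant replicate 1, mutant replicate 4 and wild-type replicate 6, and its adjusted p ran from 0.00436 to 0.0794. AT5G62080 passed only without mutant replicate 4 (adjusted p = 0.0163) and reached 0.113 without mutant replicate 5-2. AT5G07230 came closest without mutant replicate 4 (log2 difference 1.72, adjusted p = 0.0708), and AT1G66850 had adjusted p from 0.208 to 0.483. The count of genes called was 3 without mutant replicate 4 and 2 without mutant replicate 1 or wild-type replicate 6. It was 1 without mutant replicate 5-2, wild-type replicate 2 or wild-type replicate 5. Over all 15164 tested probe sets, 68 were called higher with all 6 arrays and 113 without mutant replicate 4. Without mutant replicate 1 or wild-type replicate 6 there were 30 and 26. Without mutant replicate 5-2, wild-type replicate 2 or wild-type replicate 5 there were 10, 20 and 11.

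**Figure D2:**
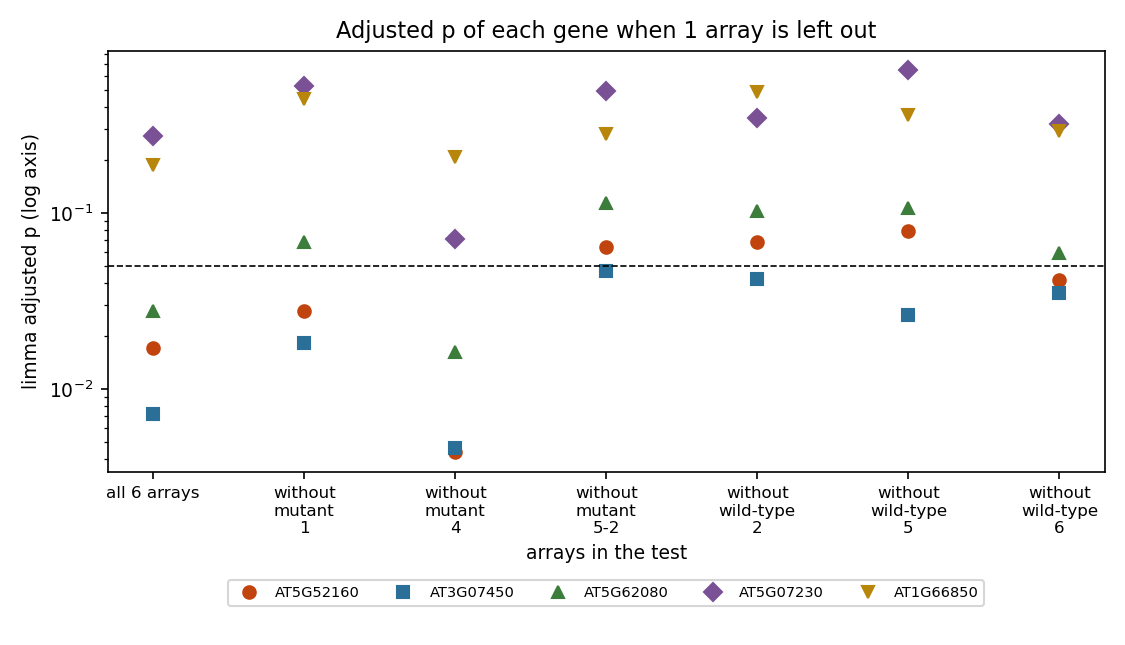
Limma adjusted p of each gene on a log axis, with all 6 arrays and with each array left out in turn. The dashed line marks 0.05; AT3G07450 stays below it throughout, between 0.00463 and 0.0469, while AT5G07230 and AT1G66850 stay above it.

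The order of the mutant arrays depended on the scaling. With the arrays at a common median, mutant replicate 4 was the lowest of the 3 mutant arrays for 5 of 5 genes, where it was the lowest for 46.0% of all tested probe sets. Replicate 5-2 was the highest for 4 of 5, and for 7430 of the 15164 tested probe sets. As deposited, replicate 4 was the lowest for 3 of 5 (32.7% of all tested) and replicate 5-2 the highest for 2 of 5. After quantile normalization these counts were 4 and 2, and with scaling to 3 other tapetal genes they were 2 and 1. Replicate 4 was then the lowest for 36.8% and 14.9% of all tested probe sets, respectively. AT5G52160 and AT5G07230 were lowest on mutant replicate 4 under each of these 4 scalings. Averaged over the 5 genes, mutant replicates 1, 4 and 5-2 lay 1.89, 1.43 and 2.26 above the wild-type mean on the log2 scale at a common median, and 1.98, 1.60 and 2.11 above it as deposited. The ratio of 3' to 5' signal for the actin control, a sign of RNA integrity that is lower in intact RNA, was 20.3, 29.6 and 17.1 on the same arrays. At a common median, mutant replicate 4 thus had the highest ratio and the lowest 5-gene mean of the mutant arrays. On wild-type replicates 2, 5 and 6 the ratio was 24.7, 22.5 and 13.3. There the 5-gene mean was lowest on replicate 5 (-0.17, against -0.10 on replicate 2), which did not have the highest ratio. The part of RNA integrity in the differences was not tested.

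For each of the 5 genes the lowest wild-type array was the same under all 4 scalings. AT5G52160 and AT5G07230 were lowest on wild-type replicate 5, by 0.69 and 0.78 below their group means on the log2 scale, and the same pair had the widest spread in the mutant (SD of log2 values 0.88 and 0.81, n = 3). AT3G07450, AT5G62080 and AT1G66850 were lowest on wild-type replicate 2, by 0.37, 0.53 and 0.24, and had mutant SDs of 0.13, 0.28 and 0.05 (n = 3). The type III gene AT5G62080 had its lowest wild-type array in common with the genes outside its group. With 5 genes and 3 wild-type arrays some genes must share a lowest array. The share over all tested probe sets was not taken, so this order is given as a description.

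Some microspore and pollen markers fell in the mutant. Of a list of 25 such markers 10 were measured, with a summed scaled intensity from 438 to 2118 on the mutant arrays and from 4266 to 6483 on the wild-type arrays. A single gene, AT5G45880, which did not pass (adjusted p in limma = 0.105), made up 67.4% to 76.9% of the wild-type sums, and without it the sums ran from 337 to 692 in the mutant and from 1007 to 1554 in wild type. Of the 9 that entered the test 3 fell, where 1.60% of all tested probe sets were called lower, and 7 of 9 did not overlap between groups with the mutant lower, where the share of all tested was 8.90%. The 3 were ANX2, a receptor kinase gene of the pollen tube, AGL104, which encodes a MADS-box factor acting in maturing pollen, and ACT12, a pollen actin gene. ANX2 and its relative ANX1 were at the floor on all 3 mutant arrays. The filter took the mean over all 6 arrays, so ANX2 entered the test through its wild-type values, and its mutant values had no spread. ACT12, with geometric means of 29.7 in the mutant and 193 in wild type, was at the floor on mutant replicate 1. The counts of 3 of 9 called and of 7 of 9 without overlap rest in part on such values and are given as a description. Relative to the wild-type mean, the mean of the 10 markers was -2.28, -1.26 and -2.22 on the log2 scale on mutant replicates 1, 4 and 5-2, and without AT5G45880 it was -1.77, -1.25 and -2.03. At a common median, replicate 4 thus had the smallest departure from wild type for these markers and for the 5-gene mean; with scaling to 3 other tapetal genes the 5-gene mean was 2.03 there and 2.02 on replicate 5-2. Anthers hold several cell types, and more cells of a type cannot be told apart from more of a transcript per cell; the part of cell makeup or anther stage in the genes' differences was not tested.

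Among other transcripts of the tapetum, ATA27, EXL5 and SHT did not pass the test in either direction and UND fell. ATA27, a tapetal glucosidase gene, read 3095, 3830 and 6483 on mutant replicates 1, 4 and 5-2. It read 8525, 6369 and 5913 on wild-type replicates 2, 5 and 6, with mutant replicate 5-2 inside the wild-type range. Its log2 difference was -0.69 ± 0.33 (SE from limma, 3 arrays per group, adjusted p in limma = 0.463). EXL5, an extracellular lipase gene of the pollen coat, had a log2 difference of 0.26 ± 0.31 (adjusted p = 0.832). SHT, which makes spermidine conjugates in the tapetum, had a log2 difference of -0.41 ± 0.29 (adjusted p = 0.667). UND, an aspartic protease gene reported as a target of MYB80, fell 8.88-fold (log2 difference -3.15 ± 0.63, adjusted p = 0.0406); that target list may rest on the arrays analysed here. Of the 12 tapetum markers listed, 4 were measured (ATA27, AMS, SHT and UND). Of these, 0 were called higher and 1 lower, beside 0.448% and 1.60% of all tested probe sets. Their summed scaled intensity ran from 6900 to 12957 in the mutant and from 10636 to 13306 in wild type. None of the 4 was at the floor on all arrays of a group.

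When each array was divided by its own geometric mean of ATA27, EXL5 and SHT in place of the median shift, the log2 differences of the genes were 3.39 (AT5G52160), 2.59 (AT3G07450), 2.08 (AT5G62080), 1.56 (AT5G07230) and 1.08 (AT1G66850). With 1 factor per array this scaling adds the same amount to the difference of every gene whose values stay above the floor. It moved the median of all tested probe sets by 0.28 on the log2 scale, so the larger differences are no result about the 5 genes. The factors also changed the spread between arrays. The limma SE went from 0.47 to 0.39 for AT5G52160 and from 0.28 to 0.38 for AT3G07450. AT5G52160 and AT3G07450 were called under this scaling, and AT5G62080 was not (adjusted p = 0.0602). The 3 genes were chosen after their values were seen. The other measured tapetum markers, AMS and UND, which had log2 differences of 1.28 and -3.15, were left out of it.

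Of the regulators around MYB80, 7 of 15 listed genes were measured and 5 entered the test, with 0 called in either direction and a median log2 difference of 0.63. AMS, a basic helix-loop-helix factor needed for tapetum development, read 2037, 1173 and 3359 on mutant replicates 1, 4 and 5-2 and 847, 774 and 863 on wild-type replicates 2, 5 and 6. The groups did not overlap on these scaled values, and mutant replicate 4 was the lowest mutant array. Its log2 difference was 1.28 ± 0.38 (SE from limma, 3 arrays per group, adjusted p in limma = 0.148), and it did not pass. BHLH091, another such factor, had a log2 difference of 1.28 ± 0.51 (adjusted p = 0.33). MYB80 itself and MS1 had no probe set named here, and their levels were not analysed here.

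**Figure D3:**
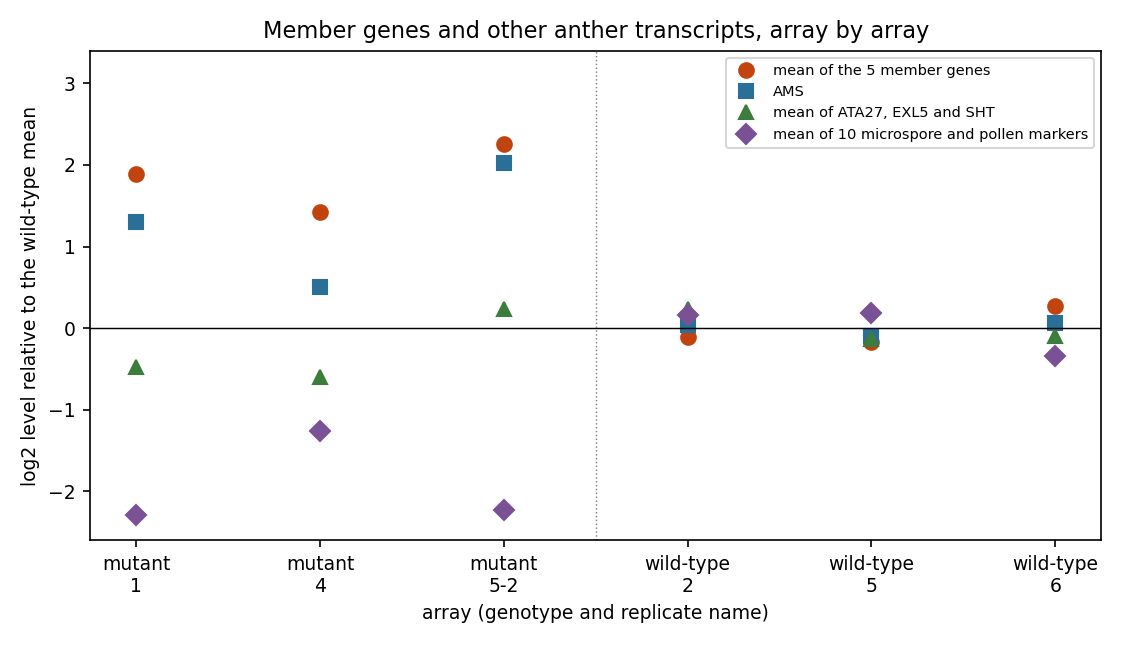
Log2 level relative to the wild-type mean on each array, for the mean of the 5 lipid transfer protein genes, AMS, the mean of ATA27, EXL5 and SHT, and the mean of 10 microspore and pollen markers. On the mutant arrays the 5-gene mean lies between 1.43 and 2.26 and the pollen markers between -2.28 and -1.26.

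The wider lipid transfer protein family was set beside the 5 genes. Of 25 other listed genes, type I lipid transfer proteins and relatives, 6 were measured and 2 were bright enough to be tested. Neither passed. For LTP10 the log2 difference was -0.70 ± 0.57 (adjusted p in limma = 0.718), and for DIR1-LIKE, a relative of a defence signalling gene, it was 0.17 ± 0.45 (adjusted p = 0.942). The type I genes LTP1 to LTP7 and the tapetal LTP12 and ATA7 had no probe set of their own named here and were not analysed here.

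A further 65 loci of the superfamily were listed after the 5 genes' values had been seen, and 32 of them were measured. Of the 16 bright enough to be tested, 1 was called higher and 0 lower, beside 0.448% and 1.60% of all tested probe sets. Their median log2 difference was 0.28. The called gene, AT3G52130, read 1143, 681 and 962 on mutant replicates 1, 4 and 5-2 and 180, 267 and 213 on wild-type replicates 2, 5 and 6. Every mutant array was above every wild-type array, and the gene rose 4.18-fold (log2 difference 2.06 ± 0.30, SE from limma, 3 arrays per group, adjusted p in limma = 0.0154). It was singled out after its values were seen. At the other end, AT1G48750 had a log2 difference of -0.95 ± 0.34 (adjusted p = 0.254), with every mutant array below every wild-type array. Of the 16, 3 did not overlap between groups with the mutant higher and 1 with the mutant lower. The shares of all tested probe sets were 8.38% and 8.90%.

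**Figure D4:**
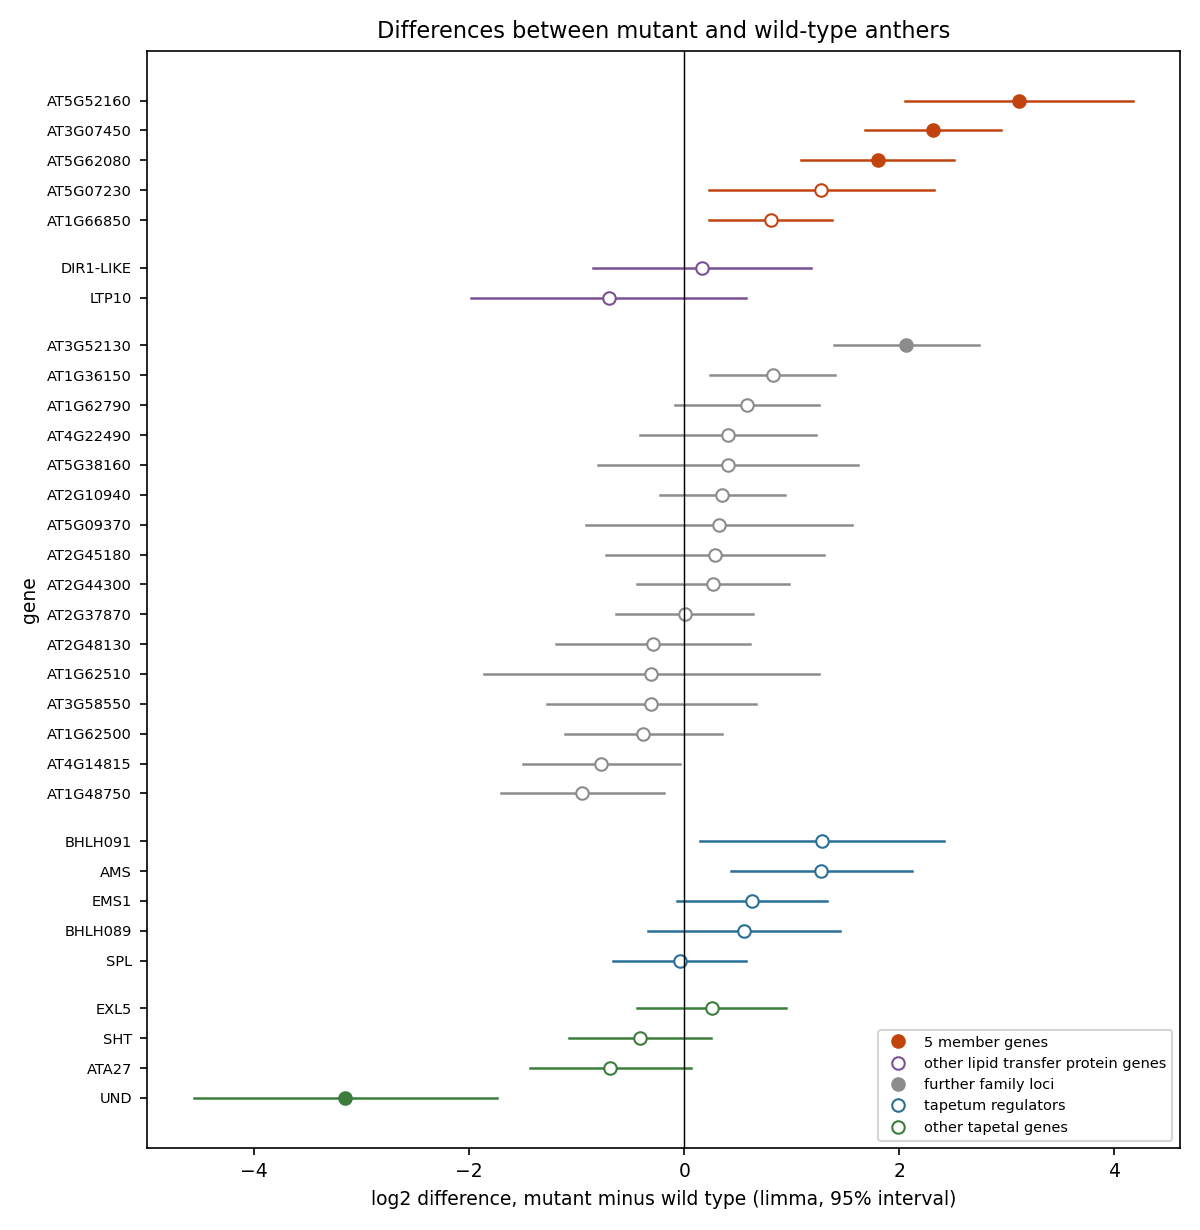
Log2 difference, mutant minus wild type, with its 95% interval from limma, for the 5 genes, the tested members of the wider family, regulators of the tapetum and other tapetal genes. Filled points passed at adjusted p under 0.05; apart from AT5G52160, AT3G07450 and AT5G62080 these are AT3G52130 (2.06) and UND (-3.15).

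In the remaining lists no gene was called. Of 14 genes for sporopollenin and exine lipids 2 were measured, KNS4, a galactosyltransferase gene of exine patterning, whose log2 difference was 0.58 ± 0.27 (adjusted p in limma = 0.434), and RPG1 (SWEET8), a sugar transporter gene, with one of -0.10 ± 0.26 (adjusted p = 0.94). Of 15 pollen coat and tapetosome genes ATA27 and EXL5 were measured, and their median log2 difference was -0.22. Of the meiosis markers 5 of 15 were measured, with summed scaled intensity from 123 to 125 in the mutant and from 131 to 152 in wild type. MND1 was the 1 tested (log2 difference 0.65 ± 0.28, adjusted p = 0.386), and its mutant arrays all lay above its wild-type arrays. The other measured meiosis genes were too dim to be tested, and most had values at the floor, so these sums are given as a description. For photosynthesis 2 of 8 were measured, LHCB4.1 (0.86 ± 0.33, adjusted p = 0.311) and RCA (0.58 ± 0.30, adjusted p = 0.502), with sums from 807 to 1171 in the mutant and from 478 to 812 in wild type. For sepals, petals and carpels 2 of 7 were measured, INO and SPT (adjusted p = 0.601 and 0.95), with sums from 145 to 187 and from 128 to 165. Of the 3 stamen identity genes and the 3 endothecium genes 0 had a probe set named here, so the label anther rests on the tapetal and pollen transcripts above.

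The genes whose pattern over the 6 arrays came nearest to the mean of the 5 were sought among 8390 tested probe sets with 1 gene, by the root mean square distance of log2 values centred on each gene's own mean. The nearest was SWEET3, a sugar transporter gene of the SWEET family, at a distance of 0.19. It read 3484, 2336 and 4326 on mutant replicates 1, 4 and 5-2 and 683.5, 727.7 and 773.8 on wild-type replicates 2, 5 and 6. After it came AT4G00750 (0.19), AT3G18560 (0.19), WES1 (0.22), which encodes an enzyme that joins amino acids to hormones such as auxin, AT5G58610 (0.23), AT4G32105 (0.24), AT2G43530 (0.24) and SWEET7 (0.27), another SWEET gene. For comparison the median distance over all candidates was 0.998, and the 5 genes lay between 0.24 (AT5G62080) and 0.73 (AT5G52160) from their own mean. The nearest genes had folds from 2.66 (AT2G43530) to 4.62 (AT5G58610). A short distance to a mean that differs between the groups selects genes that differ too, so their differences are given as a description.

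The 5 genes lie apart in the genome, 3 on chromosome 5 and 1 each on chromosomes 1 and 3. Within 5 places of them in the RefSeq gene order, 19 genes had a named probe set, of which 10 were tested and 0 called. Over all tested probe sets 0.448% were called higher and 1.60% lower, so 0 of 10 is no result about the neighbours. The neighbour with the lowest adjusted p was IQD23, which lies next to AT5G62080 and differed by 0.92 ± 0.31 on the log2 scale (adjusted p in limma = 0.227).

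Over the whole series the test called 68 probe sets higher and 243 lower, and the split differed between scalings. On the intensities as deposited it was 54 higher and 87 lower, and with scaling to the 3 other tapetal genes it was 45 higher and 25 lower. That scaling raises the difference of every probe set above the floor by the same amount, and it also changes the spread between arrays. The labels call the replicates biological without saying whether the plants shared a sowing. The limma p-values set each difference against the spread between these arrays, moderated over all tested probe sets. That spread may be technical, and whether it covers separate sowings is not known.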

How the data were processed

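Biotin-labelled cRNA from anthers was hybridised to Affymetrix arrays per the labels. The authors deposited 1 intensity per probe set and array on a linear scale, as judged from the values; their software and background correction were not given in the sources used here. Array medians differed by 0.323 on the log2 scale, so each array was multiplied by 1 factor to a common median. Values under a floor of 16 were set to it before taking log2, and 64 control probe sets were left out. The dimmest 1 in 3 of 22746 probe sets, by mean over the 6 arrays, were dropped, and limma's prior degrees of freedom were then 5.39, against 0.728 over all probe sets and 3.39 when only those with no variance were dropped. R 4.3.3 and limma 3.58.1 (lmFit, eBayes, two-sided) were used, and statmod 1.5.0 for array weights; the fit was tested on simulated data. Probe sets were named through gene identifiers and RefSeq's TAIR10.1 table: 13513 had 1 gene, 503 several and 8730 are unnamed here. The members, gene lists, filter and tests were chosen with earlier results of these data known. Named genes are the members, up to 4 called genes of each list or else up to 2 with the smallest p, the 8 nearest profiles and called neighbours; AT3G52130, AT1G48750, EXL5, SHT and IQD23 were added. No probe or gene sequences were used here. The number of arrays limits the precision.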

Additional observations from a re-analysis of the deposited data

How the results depend on the processing

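Of 18 alternative settings 8 leave the log2 differences of the 5 genes as they are; in the other 10, 50 of 50 stayed above 0. AT5G07230 and AT1G66850 were not called in any of the 18. The count of genes called higher fell from 3 to 0 with no filter on dim probe sets, with 1 probe set per named gene and with a floor of 64, where the log2 differences of AT5G52160, AT3G07450 and AT5G62080 kept their values of 3.11, 2.31 and 1.80, and the cause was not tested. With no floor AT5G62080 was not called (1.80, adjusted p = 0.0517), nor with scaling to 3 other tapetal genes (2.08), which was chosen after seeing the data. Leaving out 1 array gave 1 to 3 called genes, differences from 2.64 to 3.51 for AT5G52160 and from 1.54 to 1.99 for AT5G62080. Over all probe sets, 68 higher and 243 lower became 1 and 2 without the filter, 0 and 1 with 1 probe set per gene, 23 and 47 with no floor, 0 and 3 with a floor of 64, 118 and 409 with a mean-variance trend, 154 and 496 with array weights, 133 and 408 at adjusted p under 0.1, and 45 and 25 with the tapetal scaling. Calls lower were 87 as deposited and 133 after quantile normalization. Leaving out 1 array gave 10 to 113 higher and 21 to 421 lower. Averaging probe sets per gene was not run, since each of the 5 genes has 1. No paired analysis was possible because the groups share fewer than 2 replicate names.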
